A study of Mus musculus with 12 samples.

Results

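Megakaryocyte and platelet genes were followed in GMPs, granulocyte and monocyte precursors sorted from mouse bone marrow. The genes were the 9 listed as Itga2b, Itgb3, Pf4, Gp1bb, Gp9, Vwf, Ppbp, Rab27b and F2r, and their members were the probe sets that the platform annotation gives to each symbol alone. Of the 9 genes 7 had probe sets, 52 in all of 105661 in the table, and Gp1bb and Ppbp are not analysed here. The list was drawn up with a lean of Itga2b towards higher values in the knock-out already known.

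Affymetrix Mouse Gene 1.0 ST arrays measured GMP RNA of C57BL/6 mice in 4 groups, with 3 arrays each and 12 in all. The groups are labelled KO, for knock-out of Gfi1, SNP, for a knock-in of human Gfi1-SNP36N, wtKI, for a knock-in of human Gfi1-wt, and WT, for wild type. The study looked for genes that the variant acts on, with acute myeloid leukaemia in view. The sources used here do not say how the alleles were made, how old the mice were or whether animals were pooled. Since arrays of 1 group may share animals, each p-value measures only a spread that may be technical.

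Megakaryocytes are the marrow cells that shed platelets. They derive from progenitors that also give rise to red cells, under the transcription factors GATA1, FLI1, RUNX1, NFE2 and GFI1B, the last a close relative of GFI1. GFI1 and GFI1B are zinc-finger repressors that bind related DNA sites, GFI1 acting mainly in stem cells, granulocytes and lymphocytes and GFI1B in megakaryocytes and red cells. The genes treated here encode the adhesion receptors, stored proteins, secretion machinery and thrombin receptor of the platelet. Itga2b, also known as CD41, marks early blood progenitors as well as megakaryocytes.

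Promoter windows of the 2 genes whose KO arrays all lay above the WT arrays, Itga2b and Pf4, are printed here because their levels are compared throughout. They run 5′ to 3′ on the gene's own strand, from 250 bases before the gene start through the first 50 bases of the gene, in RefSeq's GRCm38.p6 build. The Itga2b window is chr11:102469834-102470133 on the minus strand, and the Pf4 window is chr5:90772185-90772484 on the plus strand. Capitals mark matches on either strand to the words AGATAA or TGATAA, taken for GATA factors, and AGGAAG or CGGAAG, taken for ETS factors such as FLI1.

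Itga2b: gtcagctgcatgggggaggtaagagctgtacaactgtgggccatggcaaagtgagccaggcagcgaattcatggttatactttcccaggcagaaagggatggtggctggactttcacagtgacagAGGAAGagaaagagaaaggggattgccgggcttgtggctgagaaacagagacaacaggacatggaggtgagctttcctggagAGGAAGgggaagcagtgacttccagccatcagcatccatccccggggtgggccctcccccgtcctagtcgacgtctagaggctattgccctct
Pf4: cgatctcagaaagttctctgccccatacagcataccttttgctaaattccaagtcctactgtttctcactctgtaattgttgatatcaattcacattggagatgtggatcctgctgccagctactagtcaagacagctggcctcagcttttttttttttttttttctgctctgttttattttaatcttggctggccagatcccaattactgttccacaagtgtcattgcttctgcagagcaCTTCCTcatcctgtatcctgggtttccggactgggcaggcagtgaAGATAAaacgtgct

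The Itga2b window held 2 ETS words, starting 125 and 43 bases before the gene start, and no GATA word. The Pf4 window held 1 ETS word, starting 9 bases before the gene start, and 1 GATA word, starting 36 bases after it. No match of one kind overlapped a match of the other. Of 32851 promoter windows of this length, 46.5% held an ETS word, 18.6% a GATA word and 7.7% both. The word AATCAC, part of the sequence that GFI1 binds, was in neither window and in 10.4% of all windows. The table held windows for 4 of the 7 measured genes. These matches describe the letters of the windows only.

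All values are log2 signals made with RMA by the submitters, and the value of a gene on an array is the median polish of its probe sets. The arrays' 5th percentile over all probe sets lay between 4.39 and 5.65, and serves below as a mark of dim signal. Of 11 measured GMP genes, Mpo, the neutrophil peroxidase, was the brightest, at 10.70 to 11.58 on the 12 arrays. The cytokine receptors Csf1r and Csf3r had mean values of 8.0 and 7.28 and the Fc receptor Fcgr2b 7.50, close to 7.49, the median of the whole table. KO 1 and SNP 1 stood apart, with median correlations to the other arrays of 0.701 and 0.633, against 0.836 to 0.886 for the other 10. On SNP 1 the mean of 12 late neutrophil genes was 4.05 that of 10 erythroid genes 3.68 and that of 7 B lineage genes 3.63 above the WT mean, and Kit and Cd34, surface markers of progenitors, were at 6.29 and 8.55, below all other arrays. On KO 1 the erythroid mean was 1.33 and the B lineage mean 1.0 above WT. Results are therefore also given for the 10 arrays without these 2. The mean of 3 Y-linked genes was 2.96 to 3.17 on WT 3, wtKI 2 and wtKI 3 and 7.51 to 8.20 on the other 9 arrays. Low Y-linked signal thus fell on 2 wtKI arrays, 1 WT array and 0 KO or SNP arrays, so sex read this way was uneven between the groups compared.

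Gfi1, the targeted gene, was not lower on the arrays labelled KO. Its gene value from 5 probe sets was 6.33, 6.78 and 6.57 in KO, 5.94, 6.35 and 6.42 in SNP, 6.09, 6.38 and 6.13 in wtKI, and 5.75, 5.71 and 6.26 in WT. The KO arrays lay wholly above WT, by 0.66 ± 0.21 (limma adjusted p = 0.8), and of the 5 probe sets 3 were higher and 2 lower in KO. Which of them lie in the deleted part of the gene is not stated, so the gene's signal does not check the KO label, and every direction given for KO below is that of the arrays so labelled. The knock-in groups lay below both others on probe set 10532126, at 3.83, 2.89 and 3.26 in SNP and 2.36, 3.65 and 2.78 in wtKI, against 6.43, 6.74 and 6.58 in KO and 5.08, 5.78 and 6.29 in WT. On probe set 10532129 they lay above both others, at 6.65, 6.66 and 7.14 in SNP and 6.88, 7.05 and 7.39 in wtKI, against 5.63, 5.63 and 5.47 in KO and 5.59, 5.33 and 5.85 in WT.

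The comparison of the arrays labelled KO with WT asks what changes with loss of Gfi1. Itga2b and Pf4 were the 2 of 7 genes whose KO arrays all lay above all WT arrays, which was also the case for 5.69% of all 14179 genes. None of the 7 lay wholly below, against 6.09% of all genes. Limma called no member and 0% of all genes at an adjusted p under 0.05, with 669 genes (4.72%) and 1 member, Itga2b, at an unadjusted p under 0.05. Since Itga2b was listed with its lean in KO known, its separation and its p-value here are not independent of that choice. Over the 7 genes 4 were higher and 3 lower, with a median log2 difference of 0.17, beside -0.0184 over all genes. That median was 0.09 on the 10 arrays and 0.29 without KO 3 or without WT 3.

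**Figure D1:**
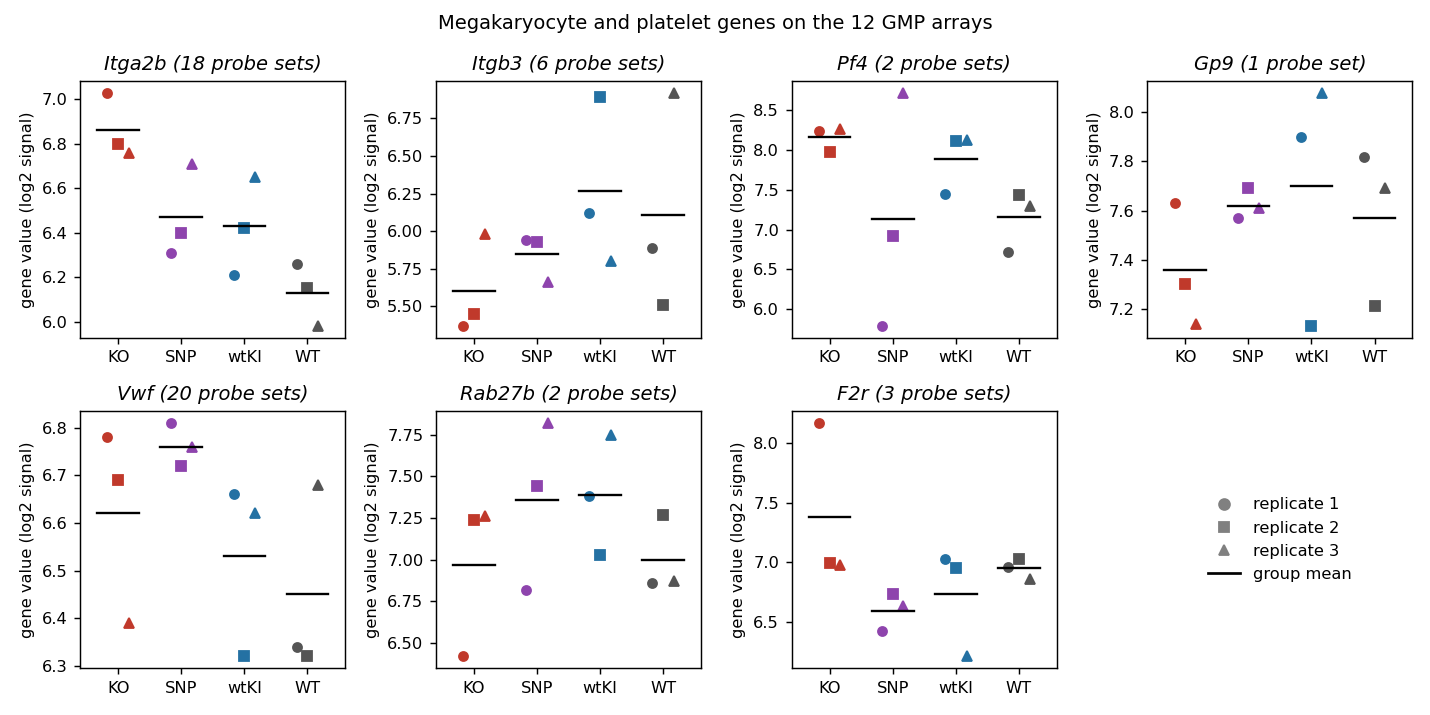
Gene values (log2 signal, vertical axes with separate ranges) of the 7 measured megakaryocyte and platelet genes on each array, by group, with bars at the group means. The 3 KO arrays of Itga2b, at 6.76 to 7.03, lie above the 9 others, and the SNP arrays of Pf4 span 5.79 to 8.72.

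Itga2b, integrin alpha IIb, is the alpha chain of the platelet fibrinogen receptor. Its gene value from 18 probe sets was 7.03, 6.80 and 6.76 in KO, 6.31, 6.40 and 6.71 in SNP, 6.21, 6.42 and 6.65 in wtKI, and 6.26, 6.15 and 5.98 in WT. The KO arrays were the highest 3 of the 12, and 118 genes in all (0.832%) had their KO arrays above every other array. That share is no test of Itga2b, whose lean in KO was known when it was listed. SNP (6.47 ± 0.21) and wtKI (6.43 ± 0.22) lay between KO (6.86 ± 0.15) and WT (6.13 ± 0.14; SD, n = 3 each), and these 2 knock-in groups overlapped throughout. The KO group was 0.74 ± 0.18 above WT (SE, 95% interval 0.34 to 1.14), which did not pass over all genes (limma adjusted p = 0.437, unadjusted p = 0.00188). Without KO 1 and SNP 1 the difference was 0.65 ± 0.18 (limma adjusted p = 0.36).

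The probe sets of Itga2b mostly leaned the same way in KO. Against WT 16 of 18 were higher, with a median difference of 0.74 and a range of -0.04 to 1.74, and none was called (lowest limma adjusted p = 0.751), where 3 of all 105661 probe sets (0.00284%) were. In 7 of the 18 the KO arrays all lay above the WT arrays and in 0 below, beside 5.41% above and 6.32% below over all probe sets. The 18 read 1 gene on the same arrays and are not independent, and Itga2b was listed with its lean in KO known. The brightest, 10391698, was at 11.17, 10.75 and 10.83 in KO, 10.01, 9.51 and 10.60 in SNP, 9.65, 10.50 and 10.75 in wtKI, and 10.17, 10.66 and 9.33 in WT. Its WT and knock-in arrays each spread over more than 1 log2 unit, and WT 2 came close to the lowest KO array. Probe set 10391706 had the widest step, with KO arrays at 7.44, 6.99 and 7.00, SNP arrays at 5.66, 6.29 and 6.20, wtKI arrays at 5.59, 4.02 and 5.47, and WT arrays at 5.63, 5.51 and 5.06. It was the only Itga2b probe set with the KO arrays above all 9 others, and was named after its values were seen. Of the 18 probe sets 5 had a mean above the table median of 7.49. All 5 were higher in KO than in WT, by 0.43 to 0.99.

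**Figure D2:**
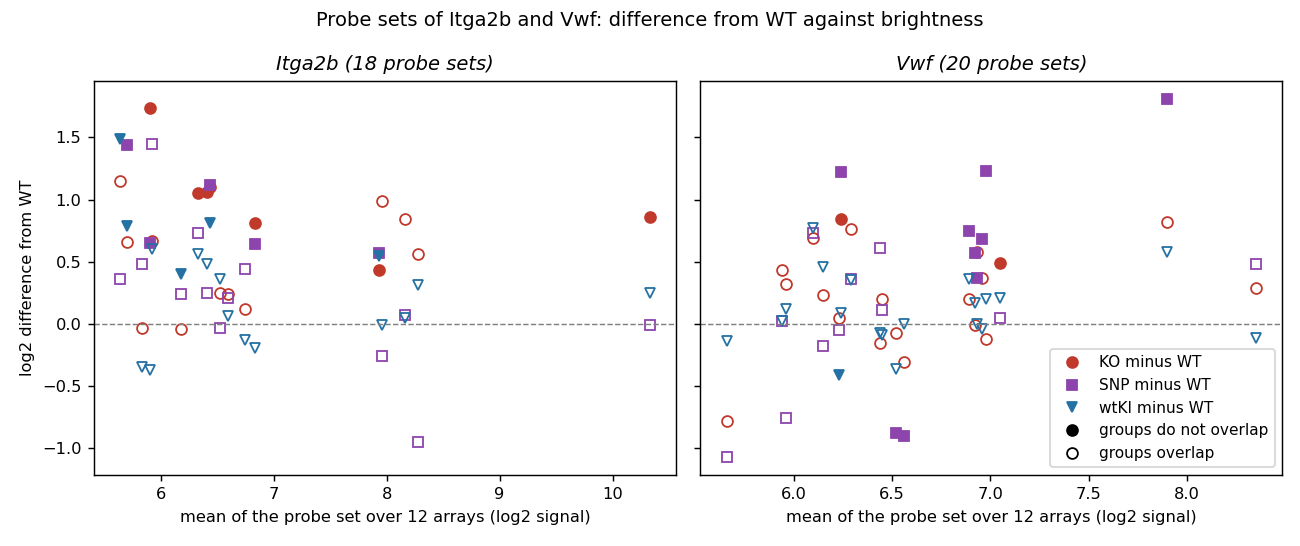
Log2 difference from WT (vertical) against mean log2 signal over 12 arrays (horizontal) for the 18 probe sets of Itga2b and the 20 of Vwf, in KO, SNP and wtKI, filled where the arrays of the 2 groups do not overlap. Most KO points of Itga2b lie above 0, with the median at 0.74, and the brightest Vwf points are higher in SNP.

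Itgb3, integrin beta 3, is the beta chain that pairs with integrin alpha IIb. Its gene value was lower in KO without passing, at 5.37, 5.45 and 5.98 in KO, 5.94, 5.93 and 5.66 in SNP, 6.12, 6.89 and 5.80 in wtKI, and 5.89, 5.51 and 6.92 in WT. The groups overlapped, and KO minus WT was -0.50 ± 0.37 (limma adjusted p = 1) and -0.39 ± 0.42 on the 10 arrays. It was -0.10 without WT 3, the highest of the 12 arrays, and -0.80 without WT 2. Of its 72 probe set values 18 were under the 5th percentile of their array, and the 6 probe sets did not lean one way, with 4 lower and 2 higher in KO. The one bright probe set, 10381810, went against the gene value. It was at 8.27, 8.04 and 7.69 in KO, 7.47, 7.70 and 8.03 in SNP, 7.53, 7.63 and 7.65 in wtKI, and 7.58, 7.06 and 7.37 in WT. Here the KO arrays all lay above the WT arrays, by 0.66 ± 0.25 (limma adjusted p = 0.955 over all probe sets). The direction of Itgb3 in KO thus depended on which of its probe sets was read.

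Pf4, platelet factor 4, is a chemokine stored in platelet alpha granules. It was at 8.24, 7.97 and 8.26 in KO, 5.79, 6.92 and 8.72 in SNP, 7.45, 8.11 and 8.12 in wtKI, and 6.72, 7.44 and 7.30 in WT. The KO arrays were close together and above WT, by 1.00 ± 0.56 (95% interval -0.24 to 2.24, limma adjusted p = 1), and by 0.96 ± 0.46 on the 10 arrays (limma adjusted p = 0.774). Both Pf4 probe sets had the KO arrays above the WT arrays, by 0.91 and 1.09. The group means ran KO 8.16 ± 0.16, wtKI 7.89 ± 0.39, WT 7.16 ± 0.38 and SNP 7.14 ± 1.48 (SD, n = 3 each), and the SNP arrays held both the lowest and the highest value of the 12. Of the neighbours in that order, KO overlapped wtKI and WT overlapped SNP. The wtKI and WT arrays missed overlapping only narrowly, at 7.45 against 7.44, and the 95% interval of their difference was -0.50 to 1.98.

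**Figure D3:**
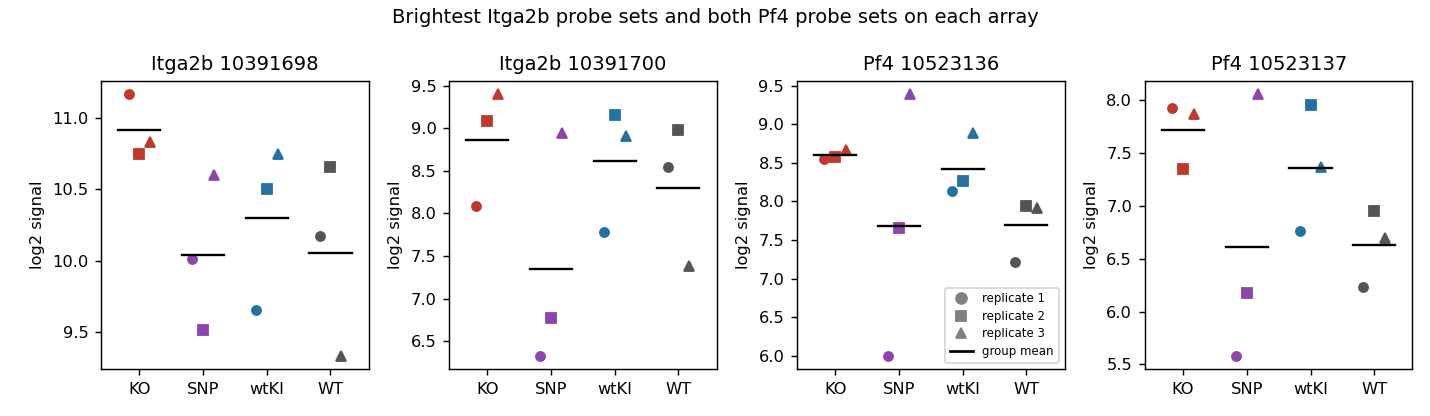
Log2 signal (vertical) of the 2 brightest Itga2b probe sets and both Pf4 probe sets on each array, by group, with bars at the group means. SNP 1 is the lowest array in both Pf4 probe sets and in Itga2b 10391700, where SNP spans 6.33 to 8.94.

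Pf4 and Itga2b varied together over the 12 arrays, with Pearson r = 0.621 (permutation p = 0.0291, two-sided) and Spearman rho = 0.692 (permutation p = 0.0149). Neither held after adjustment over the 21 pairs of the 7 genes (adjusted p = 0.306 and 0.314). Pearson r was 0.658 without the 2 arrays farthest from the Itga2b median, 0.71 on the 10 arrays and 0.599 for deviations from the group means. Rab27b and F2r ran opposite (r = -0.648, adjusted permutation p = 0.306; Spearman rho = -0.308, adjusted permutation p = 0.856), and r shrank to -0.285 without the 2 arrays farthest from the Rab27b median. It was -0.667 on the 10 arrays and -0.557 for deviations from the group means.

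Gp9, glycoprotein IX, belongs to the platelet receptor for von Willebrand factor and rested on 1 probe set. It was at 7.63, 7.30 and 7.14 in KO, 7.57, 7.69 and 7.61 in SNP, 7.90, 7.13 and 8.08 in wtKI, and 7.82, 7.21 and 7.69 in WT. The 4 groups overlapped, and KO minus WT was -0.22 ± 0.26 (95% interval -0.79 to 0.36) and -0.35 ± 0.28 on the 10 arrays. Group means lay between 7.36 and 7.70.

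Vwf, von Willebrand factor, is stored in platelets and in endothelial cells and tethers platelets to injured vessels. From 20 probe sets it was at 6.78, 6.69 and 6.39 in KO, 6.81, 6.72 and 6.76 in SNP, 6.66, 6.32 and 6.62 in wtKI, and 6.34, 6.32 and 6.68 in WT. KO overlapped WT, with a difference of 0.17 ± 0.18 (limma adjusted p = 1) and 0.09 ± 0.18 on the 10 arrays. Only 2 of the 20 probe sets were brighter than the median of the table. Endothelial genes as a list had a mean level of 6.65 to 6.88 in KO and 6.68 to 7.03 in WT.

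Rab27b, a small GTPase of dense granule secretion, was at 6.42, 7.24 and 7.26 in KO, 6.82, 7.44 and 7.82 in SNP, 7.38, 7.03 and 7.75 in wtKI, and 6.86, 7.27 and 6.87 in WT. KO 1 and SNP 1 were the lowest 2 arrays. KO minus WT was -0.03 ± 0.31 on all arrays and 0.24 ± 0.23 on the 10 arrays (limma adjusted p = 1 and 0.94). It was 0.24 without KO 1 alone, -0.03 without SNP 1 alone and 0.10 without WT 2 alone, so its direction turned with KO 1 or WT 2.

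F2r, the thrombin receptor PAR1, carries thrombin signals on human platelets, while mouse platelets use other receptors of the family. It was at 8.17, 6.99 and 6.98 in KO, 6.42, 6.73 and 6.63 in SNP, 7.03, 6.95 and 6.21 in wtKI, and 6.96, 7.03 and 6.86 in WT. Only KO 1 stood out. The KO difference of 0.43 ± 0.32 on all arrays (limma adjusted p = 1) was 0.03 ± 0.23 on the 10 arrays.

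**Figure D4:**
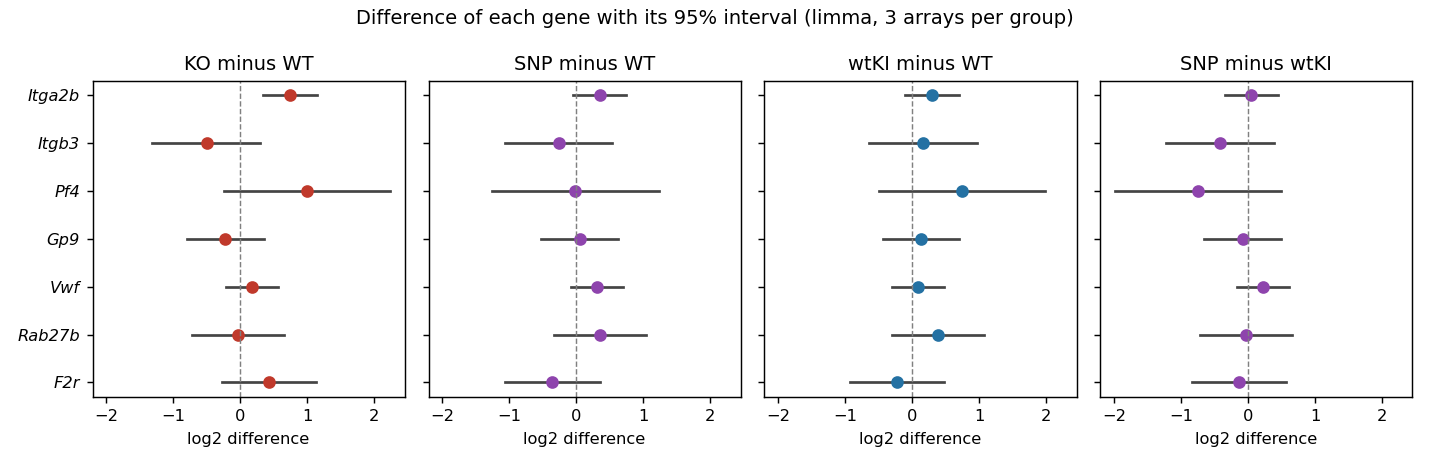
Log2 difference (horizontal) of each measured gene in 4 comparisons, with points for the estimate and lines for the 95% interval from limma. The interval of Itga2b in KO minus WT, 0.34 to 1.14, is the one that lies apart from 0 before adjustment.

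SNP against wtKI compares the variant with the common human form. No member was called in this comparison, and 0% of all genes were (limma), with 1259 genes (8.88%) and no member at an unadjusted p under 0.05. Of the 7 genes 2 were higher and 5 lower, with a median log2 difference of -0.08 beside -0.0211 over all genes. Vwf alone had the SNP arrays above all wtKI arrays, beside 7.22% of all genes, and none lay wholly below, beside 7.41%.

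The Vwf gene value was 6.76 ± 0.04 in SNP and 6.53 ± 0.18 in wtKI (SD, n = 3), a difference of 0.23 ± 0.18 (limma adjusted p = 0.637) and 0.21 ± 0.18 on the 10 arrays, and 0.12 without wtKI 2. Of its 20 probe sets 7 had the SNP arrays wholly above wtKI and 2 wholly below. Over all probe sets 5.14% and 7.93% did, but the 20 read 1 gene on the same arrays and are not independent. Both bright Vwf probe sets were among the 7. Probe set 10541925 was at 9.20, 8.25 and 9.27 in SNP, 7.89, 7.19 and 7.94 in wtKI, 9.16, 7.10 and 7.47 in KO, and 6.61, 7.37 and 7.31 in WT. SNP was above wtKI there by 1.23 ± 0.52 and above WT by 1.81 ± 0.52 (limma adjusted p = 0.652 and 0.303 over all probe sets). The other, 10541939, was 0.59 ± 0.36 above wtKI, so the bright probe sets showed a wider step than the gene value.

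Pf4 in SNP minus wtKI was -0.75 ± 0.56 (95% interval -1.99 to 0.49, limma adjusted p = 0.631), and -0.07 ± 0.46 on the 10 arrays. Without SNP 3, the highest array, it was -1.54 (limma adjusted p = 0.4, unadjusted p = 0.00156), so the size depended on both SNP 1 and SNP 3. SNP 1 and SNP 2 lay below all wtKI arrays and SNP 3 above them. Itga2b differed by 0.05 ± 0.18 (95% interval -0.35 to 0.45) and Itgb3 by -0.42 ± 0.37, and on the 10 arrays by 0.13 and -0.47. For Itga2b the 5 bright probe sets did not follow the gene value, with 3 lower and 2 higher in SNP and a median of -0.25. In 2 dim Itga2b probe sets, 10391704 and 10391706, the SNP arrays all lay above the wtKI arrays (0.83 ± 0.36 and 1.02 ± 0.40). Gp9 differed by -0.08 (95% interval -0.65 to 0.49), Rab27b by -0.03 (-0.71 to 0.66) and F2r by -0.13 (-0.84 to 0.57). On the 10 arrays these were -0.05, 0.25 and -0.05, so Rab27b turned direction.

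wtKI against WT and SNP against WT compare the human forms with the mouse gene, and share the WT arrays with the KO comparison. In wtKI 6 of the 7 genes were higher than in WT and F2r was lower, with a median log2 difference of 0.16 beside -0.00657 over all genes. None was called, nor were any genes (0%, limma; 434 genes and no member at an unadjusted p under 0.05). Pf4 had its wtKI arrays wholly above WT, by 0.74 ± 0.56 (limma adjusted p = 1), where 5.78% of all genes lay wholly above and 6.81% wholly below. Itga2b was 0.30 ± 0.18 and Rab27b 0.38 ± 0.31 above WT, both with overlap.

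In SNP 4 of the 7 were higher than in WT and 3 lower, with a median of 0.05 on all arrays and 0.29 on the 10 arrays, and none was called, as for 0% of all genes (limma; 2256 genes and no member at an unadjusted p under 0.05). Itga2b (0.35 ± 0.18) and Vwf (0.31 ± 0.18) lay wholly above WT and F2r (-0.36 ± 0.32) wholly below, with limma adjusted p = 0.349, 0.366 and 0.552, and differed by 0.43, 0.29 and -0.27 on the 10 arrays. In this comparison 12.9% of all genes lay wholly above and 12.9% wholly below. Of the 3 F2r probe sets, all dimmer than the table median, only 10411233 had its SNP arrays wholly below WT. It differed by -1.87 ± 0.74, with SNP 3 at 2.72, while 10411230 and 10411232 overlapped, at -0.15 and -0.04. Pf4 was -0.01 ± 0.56 on all arrays, 0.67 ± 0.46 on the 10 arrays and -0.80 without SNP 3. Rab27b was 0.36 ± 0.31 above WT and 0.63 ± 0.23 on the 10 arrays (limma adjusted p = 0.54 and 0.256). The brightest Itga2b probe set, at -0.01 ± 0.42, did not share the gene's difference.

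Beyond these genes, 4 wider lists of the platelet programme were read on the same arrays. None of their genes was called in any of the 4 comparisons (limma). Of 20 measured platelet surface receptors 14 were higher in KO than in WT, with a median difference of 0.06. Selp, P-selectin of the alpha granule membrane, was the 1 receptor of 20 whose KO arrays lay wholly above WT, where 5.69% of all genes did, and none lay wholly below. It was at 5.90, 6.94 and 7.93 in KO, 5.06, 4.85 and 5.65 in SNP, 5.54, 4.96 and 5.42 in wtKI, and 4.96, 5.12 and 5.75 in WT. KO was above WT by 1.65 ± 0.44, and by 2.16 on the 10 arrays (limma adjusted p = 0.563 on all arrays). Selp on the other 9 arrays, at 4.85 to 5.75, was near the dim end of the table.

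Of 28 granule and secretion genes 13 were higher and 15 lower in KO, with a median of -0.02, and 4 lay wholly above and 4 wholly below WT, where 5.69% and 6.09% of all genes did. F13a1, the A chain of coagulation factor XIII, which monocytes also make, was -0.83 ± 0.26. Vps33b, needed for alpha granule formation, was -0.81 ± 0.22, while its partner Vipas39 was 0.48 ± 0.27 (limma adjusted p = 0.8, 0.571 and 1). Vps33b also lay wholly below WT in SNP (-0.70 ± 0.22) and in wtKI (-0.41 ± 0.22), so its lower level was not particular to KO. In SNP minus wtKI the median of this list was 0.05. Here 1 gene lay wholly above and 3 wholly below, where 7.22% and 7.41% of all genes did. The 1 above was Lyst (0.47 ± 0.27, and 0.15 on the 10 arrays). The 3 below were Angpt1 (-1.51 ± 0.44), the ligand of the Tek receptor, Rab38 (-1.10 ± 0.35), a GTPase of lysosome-related organelles, and Tgfb1 (-0.60 ± 0.19), each with limma adjusted p = 0.551. Without SNP 1 and KO 1 these 3 were -1.0, -0.69 and -0.61. Of 20 genes of the cytoskeleton and integrin activation 14 were lower in KO, with a median of -0.16. In KO 2 lay wholly above and 4 wholly below WT, where 5.69% and 6.09% of all genes did. Tpm4, a tropomyosin, was 0.40 ± 0.17 and Was, an actin regulator, -0.40 ± 0.22 (limma adjusted p = 1 for both), and Was was -0.23 on the 10 arrays. Apbb1ip (-0.37 ± 0.20) and Plcg2 (-0.28 ± 0.20) also lay wholly below. Tpm4 lay wholly above WT in SNP (0.45 ± 0.17) and wtKI (0.31 ± 0.17) too, and Was wholly below in SNP (-0.67 ± 0.22).

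Of 24 megakaryocyte transcription factors 12 were higher and 12 lower in KO, with a median of 0.01. In KO 4 lay wholly above and 1 wholly below WT, where 5.69% and 6.09% of all genes did. The 3 with the widest steps without overlap were higher in KO, and the next, Lyl1, was lower (-0.24 ± 0.14). Gata2, a factor of stem cells, mast cells and early megakaryocytes, was at 6.99, 6.99 and 6.98 in KO and 6.61, 6.57 and 6.19 in WT, a difference of 0.53 ± 0.22. Gata1, the main factor of red cells and megakaryocytes, differed by 0.53 ± 0.31 on 1 probe set and by 0.23 on the 10 arrays. Gfi1b, the relative of Gfi1, differed by 0.43 ± 0.18 (limma adjusted p between 0.999 and 1 for these 3). Gfi1b also lay wholly above WT in SNP (0.35 ± 0.18) and wtKI (0.28 ± 0.18), and Gata2 in wtKI (0.60 ± 0.22). Gata2 in SNP overlapped WT, with means of 6.38 and 6.46. Lyl1 lay wholly below WT in SNP (-0.27 ± 0.14) and wtKI (-0.15 ± 0.14) as well. Between SNP and wtKI Gata2 differed by -0.68 ± 0.22, with SNP arrays at 6.27, 6.28 and 6.58 and wtKI arrays at 6.66, 7.03 and 7.48 (limma adjusted p = 0.551).

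Marker genes of other cells were read on the KO and WT arrays too, and limma called none of them. All 10 measured mast cell, basophil and eosinophil genes were higher in KO than in WT, with a median of 0.97 (0.79 on the 10 arrays), and the list's mean level was 8.08 to 8.38 on the KO arrays, 6.88 to 7.42 on the SNP arrays, 7.02 to 8.30 on the wtKI arrays and 6.81 to 7.68 on the WT arrays. Erythroid genes had a mean level of 5.55 to 7.37 in KO and 5.60 to 6.44 in WT, with 8 of 10 higher and a median of 0.26 that was -0.30 on the 10 arrays. Late neutrophil genes were 5.57 to 6.74 in KO and 6.36 to 7.50 in WT, with 10 of 12 lower. Of the 12, 1 lay wholly above and 3 wholly below WT, where 5.69% and 6.09% of all genes did. The 1 above was Mmp8, at 10.17 in KO and 6.82 in WT (3.36 ± 0.74, limma adjusted p = 0.337). Mmp8 lay wholly above WT in wtKI (1.45 ± 0.74) and SNP (2.31 ± 0.74, and 1.20 on the 10 arrays) too. Stem and early progenitor genes were 6.53 to 6.76 in KO and 6.27 to 6.61 in WT, with 8 of 11 higher and a median of 0.16. They were 6.61 to 7.30 in wtKI and 6.37 to 6.91 in SNP. Against WT 10 of the 11 were higher in wtKI (median 0.34) and 8 in SNP (median 0.15). The part of these marker genes in the levels of Itga2b, Pf4 and Selp was not tested. In sorted cells measured in bulk, more cells of a type and more RNA per cell cannot be told apart.

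**Figure D5:**
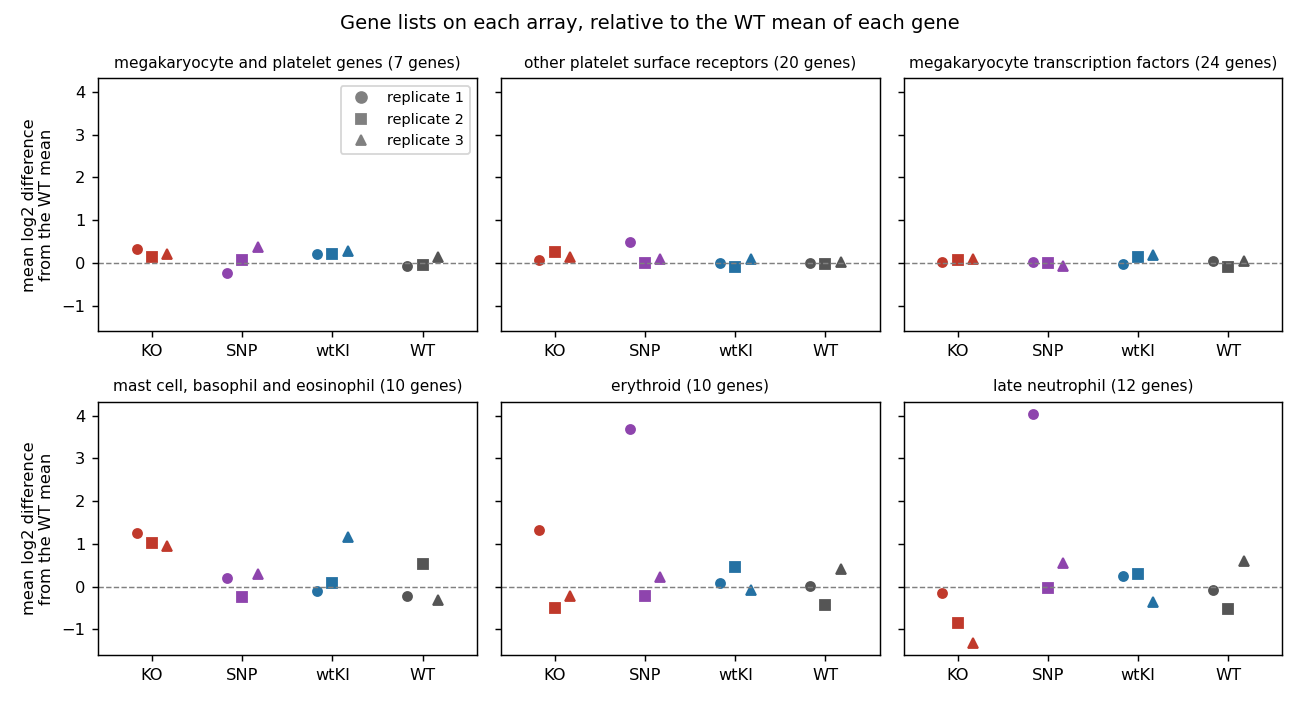
Mean log2 difference from the WT mean (vertical) of 6 gene lists on each array, by group. The 7 megakaryocyte and platelet genes lie within -0.24 to 0.37 on all arrays, while the mast cell, basophil and eosinophil genes lie at 0.95 to 1.25 on the KO arrays and the late neutrophil genes at 4.05 on SNP 1.

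The genes whose pattern over the 12 arrays was most like Itga2b, among 11322 others with at least 2 probe sets, were Pcgf2 (Pearson r = 0.88), Mcoln2 (r = 0.876), Tgfbr2 (r = 0.873), Epn1 (r = 0.859) and Ndrg2 (r = 0.856). On the 10 arrays their r lay between 0.80 and 0.863. Those most like Pf4 were Cfap20 (r = 0.90), Spa17 (r = 0.891), Tslp (r = 0.886), Pafah2 (r = 0.871) and Pstk (r = 0.866), with r between 0.728 and 0.861 on the 10 arrays. No gene of the platelet lists was among these 10. The values describe likeness over a few arrays that share groups, and were picked as the highest of all.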

How the data were processed

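GMP RNA was amplified with a NuGEN kit for small inputs and hybridised to 12 arrays, per the labels' protocols. RMA is the tool named in the submitters' processing notes, and the deposited table holds its log2 values; no version or setting is stated there. Every probe set reaches 6.14 on some array, so genes low everywhere are missing. The 98975 probe sets with 1 symbol in the platform annotation (1703 had several, 4983 none) were named through RefSeq GRCm38.p6 symbols and summarised by median polish into 14179 genes, 2856 of them on 1 probe set.

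Groups came from the sample titles. Limma 3.58.1 in R 4.3.3 (lmFit, eBayes) was fitted to all 12 arrays with 4 group means, with Benjamini-Hochberg adjustment over all genes, or all probe sets, at 0.05. Errors beside differences are standard errors. The code was tested on simulated data. Precision is limited by the number of arrays.

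Named were all members, list genes whose groups did not overlap (up to 4 per list and comparison, of which the main ones are printed), and the 5 genes most like Itga2b and Pf4. The members and lists were chosen with earlier results of these data known. Alternatives changed the gene summary, normalization, dim-gene filter, variance model, array weights, replicate block, sex term and arrays used.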

Additional observations from a re-analysis of the deposited data

How the results depend on the processing

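No member passed over all genes under any alternative except Itga2b in KO minus WT with array weights (0.69, limma adjusted p = 0.0155; 1 member called), a fit that gave KO 2 a weight of 6.85 against 0.22 and 0.87 for KO 1 and KO 3. That difference was between 0.65 and 0.86 over 22 alternatives, with adjusted p from 0.0155 to 1. Of 636 member differences 589 kept their direction. Itga2b and Itgb3 had no value without the dimmest 30% of genes.

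Calls over all genes in KO minus WT numbered 3 with the plain mean of probe sets, 1 with quantile normalization, 1 with only the groups compared, 507 with array weights and 4 on the 10 arrays, and 0 to 5 with 1 array left out. SNP minus wtKI gave 1 with only the groups compared and 0 to 2 with 1 array left out, wtKI minus WT gave 4 with array weights and 0 to 1, and SNP minus WT gave 1 without the dimmest 30%, 4 with array weights and 0 to 2. The members' median was 0.66 in KO minus WT with the brightest probe sets, 0.16 in SNP minus wtKI and 0.26 in SNP minus WT with array weights, and 0.29 in SNP minus WT on the 10 arrays. With 1 array left out it was 0.09 (without KO 1) to 0.29 (without KO 3 or WT 3) in KO minus WT, -0.15 to 0.11 in SNP minus wtKI, 0.02 to 0.30 in wtKI minus WT and 0.05 to 0.29 in SNP minus WT. It turned upward in SNP minus wtKI without wtKI 3, and the range in wtKI minus WT came from leaving out WT 2 (0.02) or wtKI 2 (0.30). The cause of these changes was not tested.

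Directions turned as follows. With the brightest probe set Itgb3 was 0.66 in KO minus WT, 0.12 in SNP minus wtKI and 0.40 in SNP minus WT, Itga2b -0.26 in SNP minus wtKI and -0.01 in SNP minus WT, and Vwf -0.11 in wtKI minus WT. With median centring Rab27b was 0.02 in KO minus WT and 0.09 in SNP minus wtKI, Gp9 0.03 in SNP minus wtKI and Pf4 0.12 in SNP minus WT. With quantile normalization these were 0.04, 0.09, 0.03 and 0.18, and F2r was 0.01 in SNP minus wtKI. With array weights Rab27b was 0.26 in KO minus WT and 0.23 in SNP minus wtKI, Pf4 0.18 in SNP minus wtKI and 0.74 in SNP minus WT, and Itgb3 -0.06 in wtKI minus WT. With sex as a term Itgb3 was 0.06 in SNP minus wtKI and -0.08 in wtKI minus WT, and Pf4 0.14 in SNP minus WT. With the plain mean Itgb3 was -0.21 in wtKI minus WT. On the 10 arrays Rab27b was 0.24 in KO minus WT and 0.25 in SNP minus wtKI, and Pf4 0.67 in SNP minus WT.

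With 1 array left out, ranges that crossed 0 were those of Rab27b in KO minus WT (-0.17 to 0.24) and SNP minus wtKI (-0.26 to 0.25), Gp9 in SNP minus wtKI (-0.37 to 0.11), wtKI minus WT (-0.06 to 0.42) and SNP minus WT (-0.13 to 0.18), F2r in SNP minus wtKI (-0.40 to 0.02) and wtKI minus WT (-0.37 to 0.04), Itgb3 in wtKI minus WT (-0.15 to 0.57) and SNP minus WT (-0.56 to 0.14), Pf4 in SNP minus WT (-0.80 to 0.67) and Itga2b in SNP minus wtKI (-0.07 to 0.16). Ranges on 1 side of 0 that reached over 1.5 times from the value on all arrays included those of Itgb3 in KO minus WT (-0.80 to -0.10) and Pf4 in SNP minus wtKI (-1.54 to -0.07).

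Samples of the same number did not deviate together within the 4 comparisons (correlations from -0.0484 to 0.113 over genes). KO and SNP arrays of the same number were not set against each other, and KO 1 and SNP 1 both stood apart. Whether the numbers pair the samples was therefore not tested in full. With the replicate block 0 genes were called in each comparison, and Itga2b in KO minus WT was 0.74 (limma adjusted p = 0.556).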
